A study of Mus musculus with 2 samples.

Results

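The forkhead family of transcription factors was followed in cultured fetal lung epithelium with and without CHIR99021. Its members were all genes with an array probe set that names that gene alone and whose symbol is Fox followed by a letter from a to s and a number. This gave 37 genes read by 82 probe sets, out of 18193 genes and 45101 probe sets in all. The tissue was lung epithelium of ICR mouse fetuses taken on embryonic day 11, and each condition was measured on 1 Affymetrix array. Both cultures first grew for 4 days in Matrigel (a gel of basement membrane proteins) with FGF10, a growth factor of lung budding, and CHIR99021. This small molecule blocks the kinase GSK3, which otherwise marks beta-catenin for degradation. The pieces were then embedded anew and grown for 2 days with FGF10, one culture still with CHIR99021 and the other without it. Both arrays therefore show tissue with earlier exposure to CHIR99021, compared after keeping and after withdrawing it. With 1 array per condition no spread between cultures, interval or p-value can be given, and every difference below is one between these 2 arrays.

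Forkhead proteins bind DNA through a winged-helix domain, and the letter after Fox names the subfamily. Foxa1 and Foxa2 are pioneer factors of the endoderm that open chromatin in the foregut and lung and act on surfactant and secretory genes. Foxp1, Foxp2 and Foxp4 are repressors of the lung epithelium, Foxj1 drives the formation of motile cilia, and Foxf1 belongs to the lung mesenchyme. The FoxO factors are held in the cytoplasm by insulin and growth factor signalling through Akt, and Foxm1 drives genes of cell division. For the FoxO factors in particular, the amount of transcript says little of activity, which is set by phosphorylation.

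The stretches upstream of 3 annotated starts are shown because they belong to the lung endoderm factors Foxa1 and Foxa2, whose signals differed between the arrays by nearly the same ratio, and to Foxp1. They are 250 bases long, end just before the start, come from RefSeq (build GRCm38.p6) and are written 5′ to 3′ on the strand of the gene, which is the minus strand for each. Capitals mark TCF/LEF letters (CTTTGAA or CTTTGAT or CTTTGTA or CTTTGTT), the sites of the factors that bind beta-catenin, and forkhead letters (TGTTTAC or TATTTAC or TGTTTGC), each searched on both strands. The stretch of Foxa1 is chr12:57546112-57546361, that of Foxa2 chr2:148046970-148047219 and that of Foxp1 chr6:99520994-99521243.
Foxa1: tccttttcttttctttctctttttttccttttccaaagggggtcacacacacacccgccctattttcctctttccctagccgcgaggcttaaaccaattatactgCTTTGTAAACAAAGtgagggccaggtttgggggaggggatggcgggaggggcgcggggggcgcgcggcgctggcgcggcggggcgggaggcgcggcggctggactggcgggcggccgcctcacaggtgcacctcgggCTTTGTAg
Foxa2: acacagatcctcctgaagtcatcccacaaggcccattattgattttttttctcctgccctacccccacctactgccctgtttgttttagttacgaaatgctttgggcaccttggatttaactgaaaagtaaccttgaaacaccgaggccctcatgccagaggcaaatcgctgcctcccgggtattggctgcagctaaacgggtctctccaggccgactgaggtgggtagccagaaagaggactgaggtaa
Foxp1: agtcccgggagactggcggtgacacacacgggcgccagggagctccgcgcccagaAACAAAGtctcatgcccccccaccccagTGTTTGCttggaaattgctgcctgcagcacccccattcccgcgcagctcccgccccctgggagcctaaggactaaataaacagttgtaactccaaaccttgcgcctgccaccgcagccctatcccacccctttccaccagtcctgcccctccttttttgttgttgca
The Foxa1 stretch held 3 TCF/LEF matches and 1 forkhead match, and the forkhead match overlaps the last bases of one TCF/LEF match and the first of the next. The Foxp1 stretch held 1 match of each kind and is the one of that gene's 3 starts with both; of the other two, one held 2 TCF/LEF matches and the other 0. The Foxa2 stretch held 0, as did those of the gene's other starts in the table. Of 32851 such stretches in the table, 14.8% held a TCF/LEF match and 9.73% a forkhead match, and for genes on the array these shares were 11.9% and 7.87%. The table matched 24 of the 37 forkhead genes with 29 starts, of which 5 (17.2%) held a TCF/LEF match and 3 (10.3%) a forkhead match. A match is a description of letters and says nothing of binding. The forkhead stretches had a median GC content of 62.8%, against 57.6% for those of genes on the array.

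Values are MAS5 signals, a linear brightness per probe set, and each gene was represented by the probe set whose mean log2 signal was highest. A background floor was taken from probe sets of odorant and vomeronasal receptor genes and lay at a signal of 19.2 without and 12.7 with CHIR99021. The array with CHIR99021 was the dimmer one, with a median log2 ratio (with over without) of -0.40 over the 11356 genes above both floors. For beta-actin the 3′ over 5′ control ratio, a sign of RNA or cRNA length, was 1.29 without and 3.18 with CHIR99021, and for Gapdh it was 0.737 and 1.62. All ratios below set the array with the higher 3′ to 5′ ratios against the other, and the part of this in each of them was not tested. Markers of lung epithelium were above the floor on at least 1 array for 10 of 10 genes, those of lung mesenchyme for 6 of 12 and those of endothelium and blood for 2 of 8. For liver and gut markers this held for 5 of 6 genes with a probe set, the brightest being Afp at 928 without and 241 with CHIR99021. The lung identity factor Nkx2-1 was read by a dim probe set at 52.0 without and 5.84, below the floor, with CHIR99021. Epcam, an epithelial adhesion molecule, was at 3846 and 3743. Axin2, a target of beta-catenin, was at 58.2 without and 267 with the inhibitor, and Sox9, a factor of the distal tip, at 70.1 and 771.

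Most forkhead genes above a floor differed by less than 2-fold between the arrays, as did most of all genes above a floor. Of the 37 genes 18 were above the floor on both arrays, 5 on 1 array and 14 on neither. Of all 18193 genes 11356 were above both floors and 12917 above at least 1. Among the 18 forkhead genes above both, 17 (94.4%) had a lower signal with CHIR99021 and 1, Foxp2, a higher one. On these arrays 76.4% of all genes above both floors were lower. Of the 23 genes above at least 1 floor 60.9% were negative after median centring, against 46.2% of all such genes. The negative ones include Foxb1 and Foxp3, at -0.04 each. Their sign came from raising the signal without CHIR99021 to the floor, so they have no direction. The 18 forkhead genes above both floors had a median log2 ratio of -0.49, against -0.40 for all such genes, and ranged from -1.03 to 0.07. At a threshold of 2-fold, 0 of the 23 genes above at least 1 floor were higher and 1, Foxk1, was lower. The background is that 1.90% of the 12917 genes above at least 1 floor were higher and 18.4% lower. The forkhead share lower was 4.35%, but it depends on where the threshold falls. Foxj3, Foxn2 and Foxq1 lay between 1.94-fold and 1.98-fold lower. Foxb2 and Foxd2, below the floor with CHIR99021, were at least 1.99-fold and at least 1.98-fold lower. At 1.5-fold 9 of 23 (39.1%) were lower and 0 higher, against 38.7% and 5.05% of all genes. Over genes above both floors 5.56% of forkhead genes were lower, against 17.3% of all genes lower and 1.75% higher. The quartiles of the 18 forkhead ratios were -0.84 and -0.30, and those of all genes above both floors -0.82 and -0.03.

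**Figure D1:**
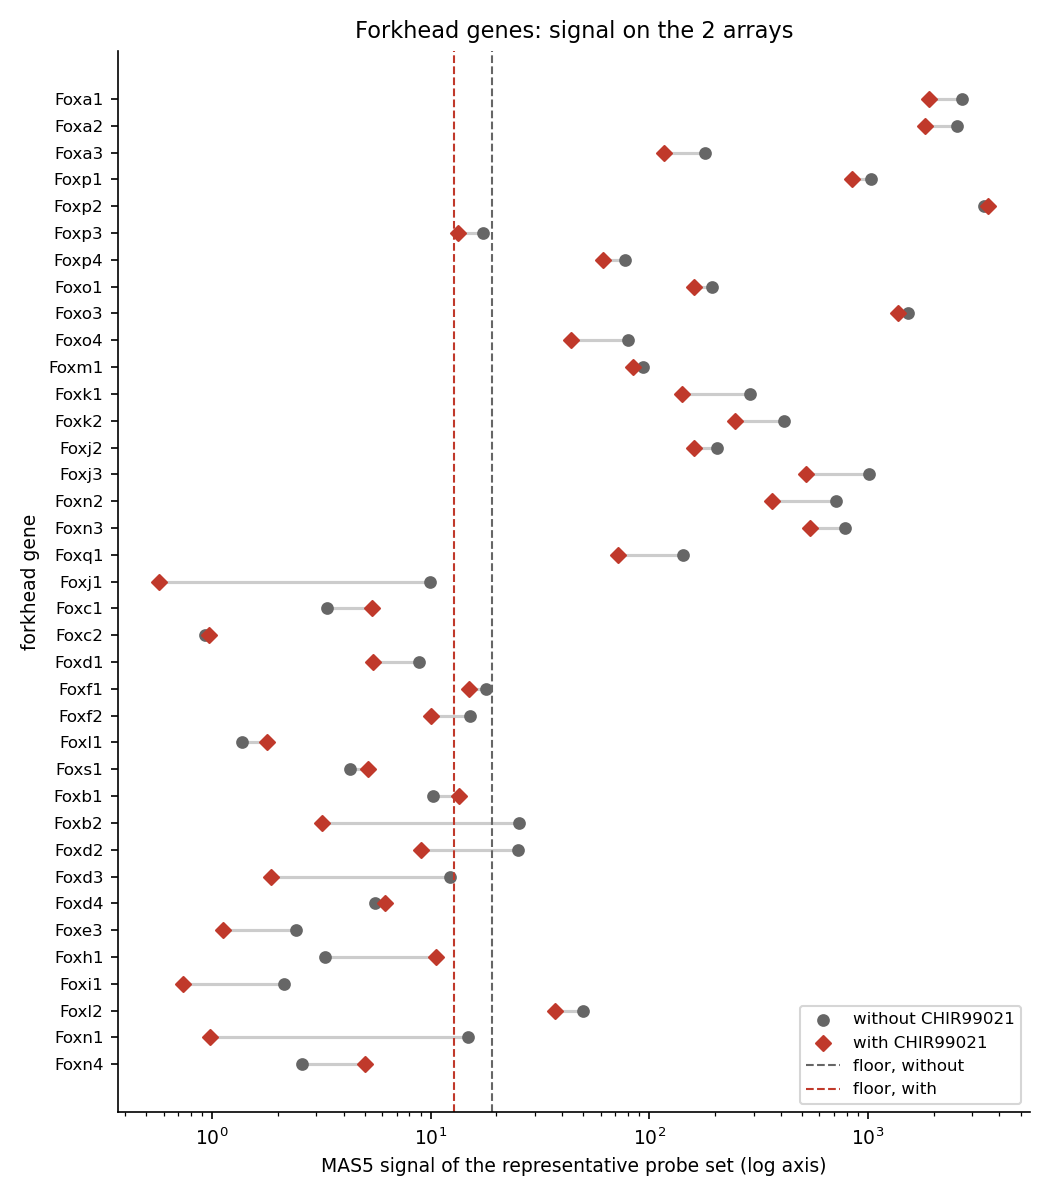
MAS5 signals (log axis) of the representative probe set of each of the 37 forkhead genes, with a grey circle for the array without CHIR99021 and a red diamond for the array with it; dashed lines are the background floors of 19.2 and 12.7. For 17 of the 18 genes above both floors the diamond lies left of the circle, by less than 2-fold for all but Foxk1. Below both floors lie 14 genes.

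The endoderm factors were read by 1 probe set each and each differed by less than 2-fold between the arrays. Foxa1 had a signal of 2686 without and 1897 with CHIR99021, a log2 ratio of -0.50. Foxa2 had 2549 and 1820, a ratio of -0.49. Foxa3, best known from liver and gut, had 179 and 117, a ratio of -0.62. All 3 were dimmer with the inhibitor on the authors' scale. Other scalings brought them close to 0, with Foxa1 at -0.025 and Foxa2 at -0.0091 after median centring and Foxa3 at -0.00064 after quantile normalization. Bright genes differed less between these arrays than dim ones, so each gene was also set beside the genes whose mean log2 signal lay within 0.5 of its own. Among 636 such genes, 25.5% had a lower ratio than Foxa1, and among 676, 26.5% had a lower ratio than Foxa2. These genes had medians of -0.17 and -0.18. For Foxa3 the share was 41.0%. With loess, which removes the trend with signal, the log2 ratios of Foxa1 and Foxa2 were -0.30 and -0.28, and that of Foxa3 was -0.08.

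Part of the genes tied to Foxa1 and Foxa2 in lung passed 2-fold, which the factors did not. Of 13 measured genes in this list 8 were at least 2-fold lower with CHIR99021 and 1 was higher, with a median log2 ratio of -1.15 against -0.42 for all measured genes and shares of 18.4% lower and 1.90% higher in the background. After median centring 4 were lower and 1 higher, beside 7.44% and 5.91% of all measured genes. After loess 6 were lower and 1 higher, beside 7.29% and 6.03%. Muc1, a mucin of the apical surface, had 380 without and 79.0 with CHIR99021 and was 4.82-fold lower. Cebpa, a transcription factor of epithelial maturation, had 581 and 138 and was 4.21-fold lower. Sftpd, surfactant protein D, had 1602 and 87.8, whereas Sftpc, surfactant protein C, had 8808 and 8500. Wnt7b, a ligand of the distal epithelium and the higher gene of the list, named after its value was seen, had 181 and 629. No test links these genes to the levels of Foxa1 and Foxa2, which were within 1.5-fold between the arrays.

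Foxp1, Foxp2 and Foxp4 differed by less than 2-fold by their representative probe sets. Foxp2, a repressor of the distal epithelium, was read by 6 probe sets above both floors. The representative one had 3394 without and 3557 with CHIR99021, a log2 ratio of 0.07, and the other 5 were negative, down to -1.18 (922 and 407). The median over its 6 probe sets was -0.31 with an SD of 0.43 between them, so its sign depends on the probe set. Foxp1, which acts with Foxp2 and Foxp4 on the epithelium, had 1036 and 846 by its representative probe set, a ratio of -0.29. Its 8 probe sets ran from -0.61 to 0.23, and 7 were negative. Foxp4 had 77.2 and 61.2, a ratio of -0.33, with a second probe set above both floors at -0.49. Another probe set of Foxp4 had 11.0 without, below the floor, and 25.1 with CHIR99021. Foxp3, the factor of regulatory T cells, had 17.4 and 13.4, below the floor without and just above the lower floor with the inhibitor, and has no direction. The ratios of the representative probe sets of Foxp1 and Foxp4 were positive after median centring (0.18 and 0.14), quantile normalization and loess.

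In the list of genes tied to Foxp factors, 1 of 9 measured genes was lower and 0 were higher, the same after median centring and after loess, with a median log2 ratio of -0.14. The background shares were 18.4% lower and 1.90% higher, 7.44% and 5.91% after median centring, and 7.29% and 6.03% after loess. The lower one was Pdpn, a glycoprotein of alveolar type 1 cells, with 284 without and 43.9 with CHIR99021. The other members above a floor are subunits of corepressor complexes. Hdac2, a histone deacetylase that works with Foxp factors and was named after its value was seen, had 2462 and 2546. Its other probe sets above both floors were at log2 ratios of -0.32 and -0.81.

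The FoxO genes were also within 2-fold by their representative probe sets. Foxo3, a factor of stress resistance, had 1520 without and 1377 with CHIR99021, a log2 ratio of -0.14, and its other probe set above both floors had 616 and 552, a ratio of -0.16. These probe sets differed less from each other than those of any other forkhead gene with several above both floors. Foxo1, the insulin-regulated member, had 193 and 161, a ratio of -0.27, while its other probe sets above both floors were at -0.99 and -1.22. Foxo4 had 79.9 and 43.8, a ratio of -0.87. For the representative probe sets, the signs of Foxo1 and Foxo3 turned positive after median centring (0.21 and 0.34), quantile normalization and loess, and Foxo4 stayed negative. The other Foxo1 probe sets above both floors stayed negative after median centring, which moves all probe sets by the same amount.

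Of 16 measured genes tied to FoxO factors, 7 were at least 2-fold lower with CHIR99021 and 0 higher, with a median log2 ratio of -0.85 and background shares of 18.4% and 1.90%. That count fell to 1 lower and 1 higher both after median centring and after loess. The background shares were then 7.44% lower and 5.91% higher, and 7.29% and 6.03%. Cat, the enzyme catalase that breaks down hydrogen peroxide, had 3908 without and 1230 with CHIR99021, and its other probe set above both floors had 2321 and 862. It was the gene still lower after these scalings, with log2 ratios of -1.19 after median centring and -1.46 after loess. Fbxo32, a ubiquitin ligase subunit, had 62.4 and 22.7, Txnip, a regulator of glucose uptake, 1220 and 487, and Bcl6, a repressor, 291 and 126. Sesn1, a stress-induced protein named after its value was seen, went the other way with 384 and 630, under 2-fold on the authors' scale, and its log2 ratio was 1.19 after median centring.

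Foxm1, the factor of G2 and mitosis genes, had 93.2 without and 83.9 with CHIR99021. Its log2 ratio was -0.15 on the authors' scale, 0.32 with median centring and 0.41 with loess, and the other probe sets above both floors were at -0.55 and 0.01. Among 1649 genes of like signal 70.0% had a lower ratio than Foxm1. Genes tied to Foxm1 had a median log2 ratio of 0.33, against -0.42 for all measured genes. Of 13 measured genes 1 was at least 2-fold higher and 1 lower, with background shares of 1.90% and 18.4%. With median centring the counts were 2 higher and 0 lower, beside shares of 5.91% and 7.44%. Skp2, a ubiquitin ligase subunit that removes a cell cycle inhibitor, had 414 and 924 and was 2.23-fold higher, though its other probe sets above both floors ran from -0.16 to 1.10. Kif20a, a mitotic kinesin, had 456 and 191 and was 2.39-fold lower.

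**Figure D2:**
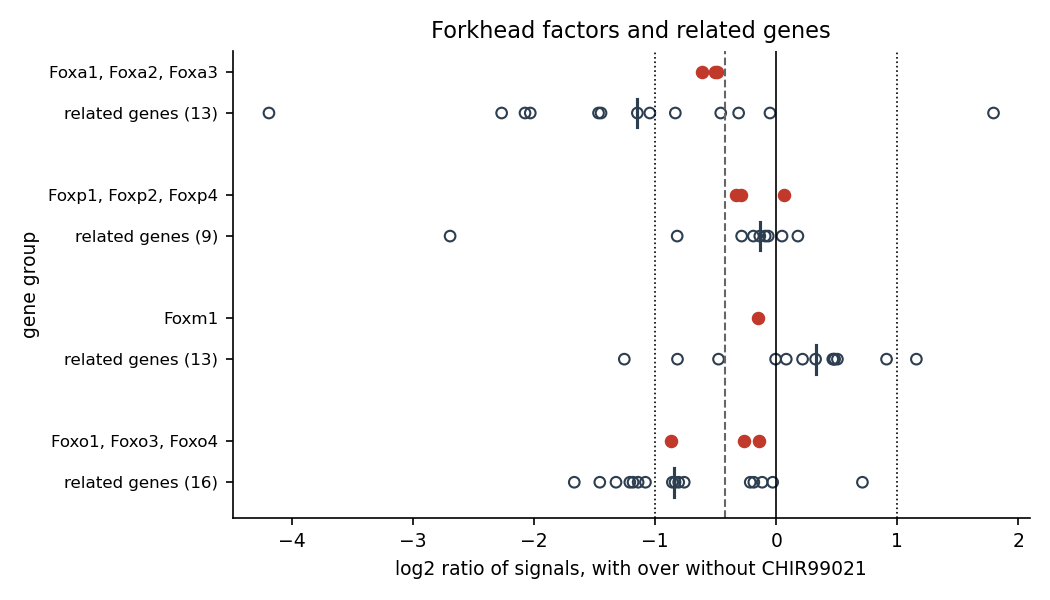
Log2 ratio of signals, with over without CHIR99021, for forkhead factors above both floors (red) and for measured genes tied to them (open circles, with a bar at the median); the dashed line is the median of all measured genes at -0.42 and dotted lines are 2-fold. The Foxa and FoxO related genes have medians of -1.15 and -0.85 and the Foxm1 related genes one of 0.33, while the 10 factors lie between -0.87 and 0.07.

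Members expressed in many tissues had ratios from -1.03 to -0.36. Foxk1, a factor that acts in metabolism and autophagy, had 289 without and 142 with CHIR99021 and was 2.04-fold lower. Its second probe set above both floors had 33.1 and 25.1, a log2 ratio of -0.40, and its ratio missed 2-fold under each of the 4 other scalings (-0.55 after median centring). Foxk2 had 414 and 247, a ratio of -0.74. Its 5 probe sets ran from -1.35 to 0.11, the widest range among the forkhead genes with several probe sets above both floors. Foxj3 had 1008 and 519, a ratio of -0.96, and another probe set had 76.7 and 16.7, a ratio of -2.20. Foxn2 had 718 and 364, a ratio of -0.98. Foxn3, a checkpoint repressor, had 782 and 542, a ratio of -0.53, but its other probe sets above both floors were at -0.66, -1.33 and -1.96. Foxj2 had 205 and 160, a ratio of -0.36 that was 0.12 after median centring. Among genes of like signal 13.6% had a lower ratio than Foxj3, 14.8% than Foxn2 and 18.5% than Foxk1.

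Foxq1, a factor of epithelial cells, had 142 without and 71.8 with CHIR99021, a log2 ratio of -0.99, and its second probe set had 105 and 60.2, a ratio of -0.80. Both were lower with the inhibitor and under 2-fold, and after median centring the gene was at -0.51. Of genes of like signal 22.6% had a lower ratio. In the RefSeq gene order of assembly GRCm38.p6, Foxq1, Foxf2 and Foxc1 are direct neighbours, and the latter 2 were below both floors in every probe set. Foxc2 and Foxl1, neighbours of each other next to Foxf1 with 1 protein-coding gene between, were below both floors as well, as was Foxe3, the neighbour of Foxd2.

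**Figure D3:**
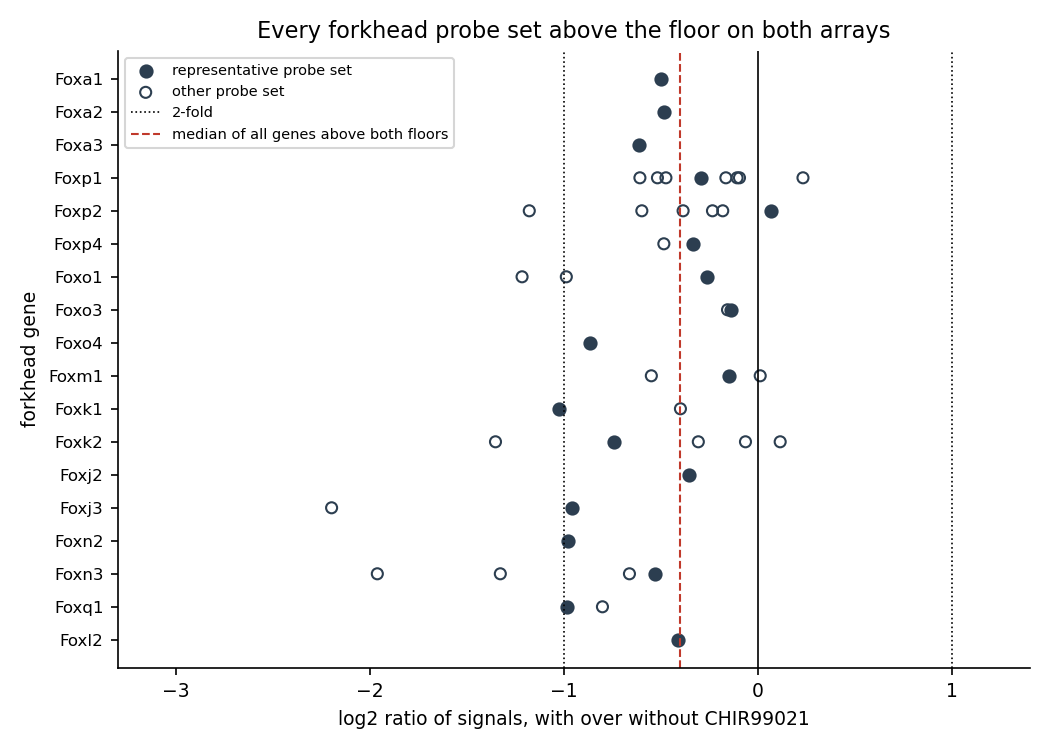
Log2 ratio, with over without CHIR99021, of the 46 forkhead probe sets above both floors, by gene; filled points are the representative probe sets, dotted lines 2-fold and the dashed line the median of all genes above both floors at -0.40. Probe sets of Foxk2, Foxn3, Foxp2 and Foxj3 spread over more than a log2 unit, and 7 of 46 lie past 2-fold lower.

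Probe sets of the same gene gave a measure of the error between probes. Of the 46 forkhead probe sets above both floors 42 had a negative ratio, 7 were at least 2-fold lower and 0 higher. In the background 22.5% of 20543 such probe sets were at least 2-fold lower and 1.41% higher. Among the 11 forkhead genes with several probe sets above both floors, the SD between probe sets of a gene was 0.46, against 0.56 over 5335 genes. Probe sets disagreed in sign for 4 of the 11 (Foxk2, Foxm1, Foxp1 and Foxp2). The brightest probe set had a less negative ratio than the median of the others in 7 of the 11. The shares of all genes for these 2 counts were not computed, so neither can be read as a trait of the family. The SD between probe sets is no measure of the spread between cultures.

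**Figure D4:**
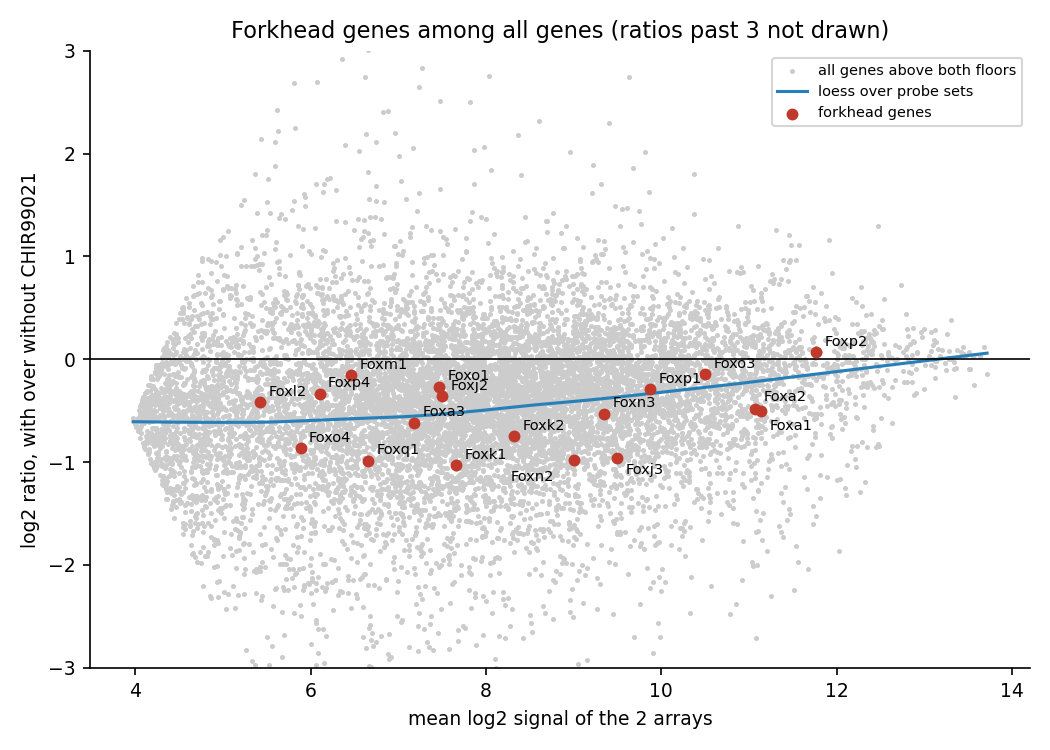
Log2 ratio, with over without CHIR99021, against the mean log2 signal of the arrays for all genes above both floors (grey) and the 18 forkhead genes (red, named); the blue line is a loess curve over named probe sets. Forkhead genes lie on both sides of the curve inside the grey cloud, from -1.03 for Foxk1 to 0.07 for Foxp2.

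Foxj1, the factor of motile cilia, was below both floors at 9.97 without and 0.574 with CHIR99021, so no ratio can be given. Of 13 ciliated cell genes with a probe set 9 were above at least 1 floor, and Tekt1, Dnah9, Ccdc40 and Spag6 were below both. Of the 9, 3 were at least 2-fold lower and 0 higher (1 and 0 after median centring, 0 and 0 after loess). The background share of lower genes was 18.4%, or 7.44% and 7.29% under these scalings, and with the higher floor used on both arrays the count of lower genes was 0. Rfx2, a factor of cilium genes, had 37.1 and 14.1, Pifo 37.2 and 5.19, and Dnah5, a dynein of motile cilia, 28.05 and 10.9, the last 2 below the floor with the inhibitor. All 3 were dim on both arrays. Rfx3, a related factor named after its value was seen, had 411 and 500.02, but its other probe set had 41.7 and 22.7, a log2 ratio of -0.88.

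Forkhead genes of mesoderm and mesenchyme were at background. Foxc1, Foxc2, Foxd1, Foxf2, Foxl1 and Foxs1 were below both floors, with representative signals of at most 15.1 without and 10.05 with CHIR99021. The probe sets of Foxf1 did not agree: one had 25.7 without and 3.89 with CHIR99021 and was above the floor only without it, and the other had 18.0 and 14.9 and was above the floor only with it. Among mesenchyme markers Acta2, an actin of smooth muscle, was at 199 without and 194 with CHIR99021, and Col3a1, Col1a2, Col1a1, Tcf21 and Tbx5 were above a floor at signals of at most 88.7. The markers Tbx4, Fgf10, Pdgfra, Pdgfrb, Wnt2 and Twist1 were below both floors, and the summed signal of the 12 markers was 465 without and 408 with CHIR99021. For endothelium and blood the summed signal of 8 markers was 98.6 and 70.8, with Pecam1, Cdh5, Tek, Emcn, Tie1 and Ptprc below both floors. In RNA from cultured pieces, fewer cells of a type and less RNA per cell cannot be told apart.

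Of the 11 forkhead genes known mainly from other lineages, 7 were below both floors (Foxd3, Foxd4, Foxe3, Foxh1, Foxi1, Foxn1 and Foxn4). Foxl2, a factor of the ovary, was above both, at 49.6 without and 37.2 with CHIR99021, a log2 ratio of -0.41, but its other probe set was below both. Foxb2 and Foxd2 were above the floor only without CHIR99021, at 25.4 and 25.2, with 3.17 and 9.07 on the other array. Set against the floor, they were at least 1.99-fold and at least 1.98-fold lower. These are bounds and do not show whether either gene passed 2-fold. Foxb1 had 10.3 and 13.4, the latter just above the lower floor. The representative probe sets of Foxb1, Foxf1 and Foxp3 passed only because the floor was lower on the array with CHIR99021, and none of them was above 19.2 there.

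The scaling set the size of the family median. It was -0.51 over the 23 measured genes on the authors' scale, -0.04 after median centring, -0.08 after loess and -0.36 when scaled on 18 bacterial hybridization controls, against -0.42, 0.05, 0.04 and -0.27 for all measured genes. After quantile normalization it was -0.00064 against 0.12. On the authors' scale, after median centring and on the hybridization controls, the family median was the ratio of Foxb1. That gene's signal was 10.3 without, below the floor, and 13.4 with CHIR99021, so its negative ratio came from the floors. Over the 18 forkhead genes above both floors the median on the authors' scale was -0.49, against -0.40 for all such genes. Median centring and the hybridization controls move every gene by 1 amount, so they leave the distance between the family and all genes as it is. Under the 4 other scalings no forkhead gene passed 2-fold in either direction, with counts of 0 and 0. The background shares were 5.91% higher and 7.44% lower after median centring, 7.28% and 6.32% with quantile normalization, 6.03% and 7.29% with loess, and 2.63% and 14.0% on the hybridization controls.

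**Figure D5:**
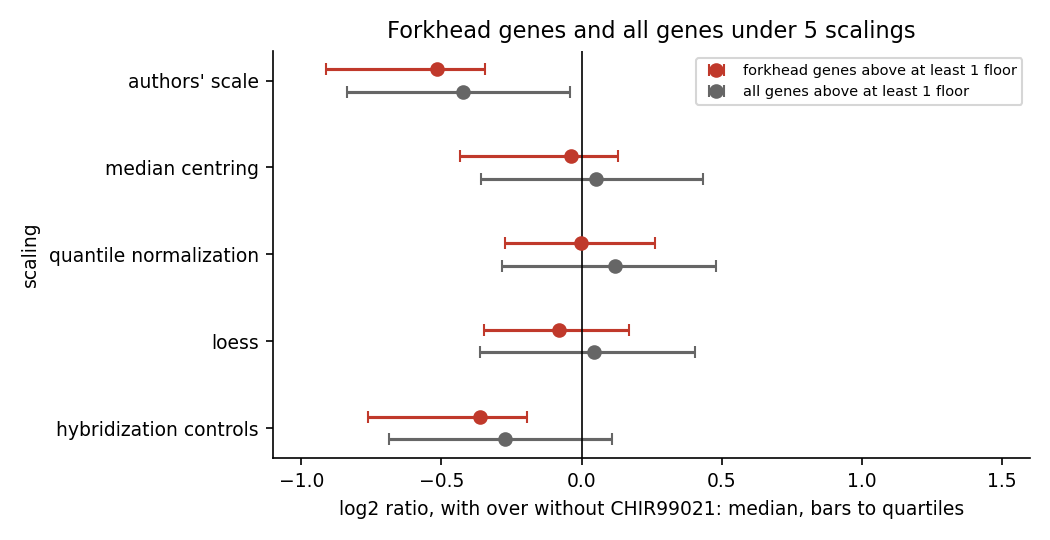
Median log2 ratio, with over without CHIR99021, of forkhead genes (red) and all genes (grey) above at least 1 floor under 5 scalings, with bars to the quartiles. The forkhead median lies a little left of that of all genes in each row, and the bars overlap throughout.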

How the data were processed

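Total RNA (100 ng per array, per the labels' protocols) was labelled by in vitro transcription from the 3′ end of the transcripts. The deposited intensity values are linear MAS5 signals, as the submitters' processing notes name MAS5. Its version and scaling target are not given in the sources used here, and no detection calls were used. Probe sets were named from the platform annotation. All 37 forkhead symbols matched RefSeq (GRCm38.p6) through Entrez identifiers, and 2 probe sets that name a forkhead gene and another gene were left out. The floor was the 95th percentile of 80 receptor probe sets on each array. Values below the floor were raised to it, and log2 ratios are with over without CHIR99021. A gene was called higher or lower at 2-fold. With 1 array per condition the number of arrays limits the precision and no test was run. Related and marker lists hold 9 sets. Of these, liver and gut markers had 2 of 5 measured genes lower (Alb and Afp) and 0 higher. Lung epithelium markers had 3 of 10 lower and 1 higher (1 and 2 after median centring). Background shares were 18.4% lower and 1.90% higher (7.44% and 5.91% after median centring). Members are named in full, and from each list up to 4 genes with the largest change past 2-fold, with Nkx2-1, Sftpc, Epcam, Axin2 and Sox9 as fixed references; others are marked in the text. The members and lists were chosen with earlier results of these data known. The procedure was tested on simulated data in which bright genes changed by more than 2-fold. That test does not cover calls close to 2-fold or ratios set against a floor. Python 3.11.15, numpy 2.4.6, pandas 2.3.3 and statsmodels 0.14.6 were used. Alternatives were other scalings (loess span 0.4), floors and thresholds, an offset of 16, and other choices of probe set.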

Additional observations from a re-analysis of the deposited data

How the results depend on the processing

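No paired analysis was possible because each condition had 1 array. The count of forkhead genes at least 2-fold higher was 0 under every alternative run except without a floor, where it was 1 (Foxh1, with signals below both floors). The count at least 2-fold lower was 1 (Foxk1) on the authors' scale. It was 0 after median centring, quantile normalization, loess and scaling on hybridization controls and at a threshold of 3-fold, 9 at 1.5-fold (39.1%, against 38.7% of all genes), and 8 without a floor, where 7 of them other than Foxk1 rest on signals below a floor. The lower gene was Foxj3 instead of Foxk1 with the median over probe sets, and Foxb2 with an offset of 16. The signal of Foxb2 with CHIR99021 was 3.17, below the floor. The median log2 ratio of -0.51 was -0.038 after median centring, -0.00064 after quantile normalization, -0.080 after loess and -0.36 on hybridization controls. With the offset, which was run without a floor over all 37 forkhead genes, it was -0.27, against -0.25 for all genes. Restricting to genes above both floors, chosen after seeing the data, gave -0.49. This restriction leaves out Foxb1. Its ratio, set by the floors, was the median on the authors' scale, after median centring and on hybridization controls. Among the 18 genes above both floors, 10 had a negative ratio under all 10 alternatives, but Foxa1, Foxa2 and Foxa3 came as close to 0 as -0.025, -0.0091 and -0.00064 and Foxn3 as -0.052. The others were Foxj3, Foxk1, Foxk2, Foxn2, Foxo4 and Foxq1, and the share of all genes that keep their sign was not computed. The floor settings and the setting without probe sets ending in _x_at or _s_at left the ratios of all 18 genes unchanged. An offset cannot change a sign, so only the scalings and the median over probe sets could do so. Dim signals limit the 19 other forkhead genes.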
